A study of Rattus norvegicus with 8 samples.

Results

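The genes described are Spns2 and the sphingosine 1-phosphate (S1P) genes around it: the exporter Spns2, the receptors S1pr1, S1pr2 and S1pr3, the sphingosine kinases Sphk1 and Sphk2, the S1P lyase Sgpl1 and the S1P phosphatase Sgpp1. They were the gene spots of the array whose symbol equals one of these 8 names, 1 probe for each gene among 30367 probes in all. Spns2 was picked because it rose after testosterone at both times measured, and the other 7 were added as its pathway. The values of Spns2 are therefore given as a description with no test.

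S1P is a lipid signal made from sphingosine, a breakdown product of ceramide, by sphingosine kinases inside the cell. Exporters such as Spns2, known in mouse from endothelial cells, release it, and G protein-coupled S1P receptors on the same or neighbouring cells respond to it. Phosphatases return S1P to sphingosine, and the lyase Sgpl1 cleaves it for good. In mouse skeletal muscle S1P is known to act on satellite cells, the stem cells of the fibre.

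All RNA came, by its labels, from male Wistar rats that were castrated and aged 120 ± 12 days. The control RNA came from castrated rats, and the treated RNA from castrated rats given testosterone propionate (spelled proprionate in the labels) as a single subcutaneous dose of 4 mg/kg in corn oil at 1 mL/kg. Treated and control RNA of the same time, 8 h or 24 h, were hybridised together on 2-colour Agilent arrays, 4 arrays a time, 8 in all. All groups thus share castration, and no intact animal is among them. The label text calls the material castrated rat cells with the code C3d, which it does not expand, and the series title names muscle atrophy, but no label names the muscle. The sources used here do not say if an array holds 1 animal or several pooled, if oil alone was given to controls, or if the 8 h and 24 h arrays drew on 1 control pool. The labels call the 4 arrays biological replicates with a dye swap, so the p-values below measure the spread between these arrays, and would be too small if arrays of opposite dye held 1 extract measured again. In bulk RNA such as this, fewer cells of a type and less RNA per cell cannot be told apart.

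Of 15 skeletal muscle fibre markers, 13 were measured, and Ckm (muscle creatine kinase) and Acta1 (skeletal actin) were well above background in both RNAs of all 8 arrays. None of 9 lymphocyte markers was well above background in any RNA. Slide 1 held the 8 h arrays and slide 2 the 24 h arrays, and time and slide thus cannot be told apart. Replicate 1 at 8 h stood apart, with a standard deviation of 0.444 over the log2 ratios of all genes, against 0.179 to 0.201 on the other 8 h arrays. Replicate 2 at 8 h correlated with replicate 3 at -0.126 and with replicate 4 at -0.0354 across genes. Between 32.7% and 44.8% of probes were well above background in an RNA, and this brightness, with 4 arrays a time, limits the precision.

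Each of the 8 genes is read through a single 60-base probe spotted once, so a gene's value rests on that stretch alone. The probes of the 3 genes with a measurable signal are shown because every ratio below comes from them. Positions, on build rn4, were read from the array files, and whether a probe lies in a coding or an untranslated exon is not given here. The first 30 bases are printed in lower case, and no base is marked.
Spns2 probe A_43_P10133, chr10:59335805-59335864, minus strand: gctgctgattgtgaatctcagagtcttaag
S1pr1 probe A_64_P048526, chr2:211851321-211851380, minus strand: gaaattcttttcttcagttgtccttaggta
S1pr2 probe A_44_P342187, chr8:19989976-19990035, minus strand: agacacacacctccgccttaaagaaatgtg
The Spns2 and S1pr1 probes are poor in G and C, at 36.7% and 35% of the 60 bases, and the S1pr2 probe holds 45%. The other probes lie at chr17:19659967-19660026 (S1pr3, minus strand), chr10:106644694-106644753 (Sphk1, plus), chr1:96179089-96179148 (Sphk2, minus), chr20:28459962-28460021 (Sgpl1, minus) and chr6:98306506-98306565 (Sgpp1, minus).

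A gene was kept for testing when its probe was well above background on 3 or more of the 4 arrays of any RNA group, the groups being control and treated RNA at 8 h and at 24 h. Spns2, S1pr1 and S1pr2 passed, 3 of the 8, and S1pr3, Sphk1, Sphk2, Sgpl1 and Sgpp1 did not. All ratios are log2 of treated over control after background correction and loess dye normalization, and levels are the log2 intensity of each RNA after the same steps. Levels are compared only within a probe. The share of all genes whose treated and control levels do not overlap was not counted, so such statements below are descriptions only.

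**Figure D1:**
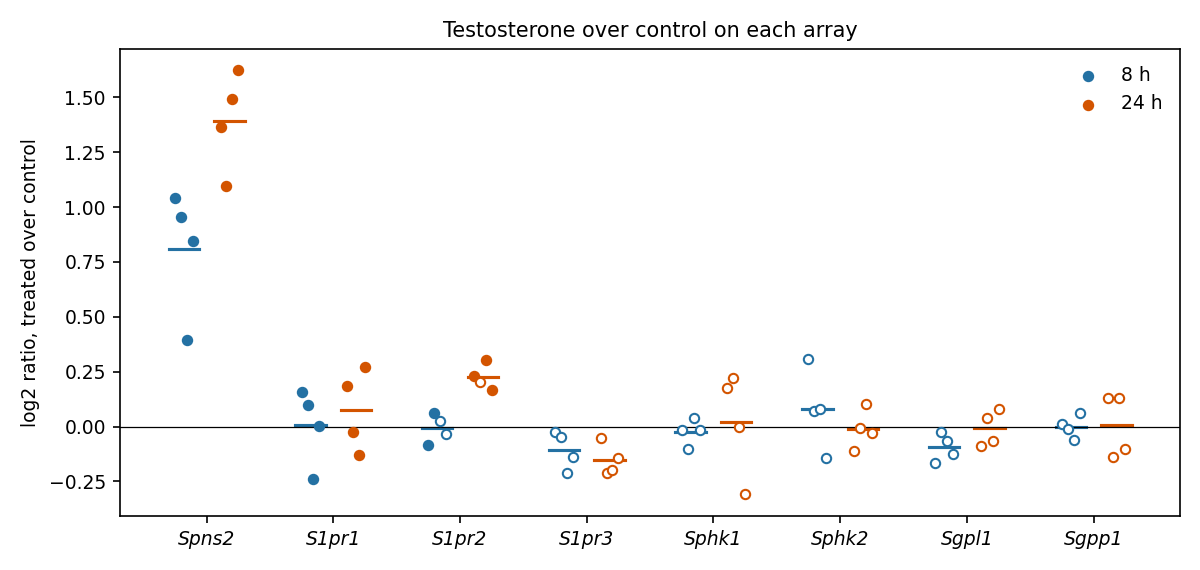
Log2 ratio of treated over control RNA (y axis) on each array for the 8 genes (x axis). Blue points are the 4 arrays at 8 h and orange points the 4 at 24 h, bars are means, and open points are arrays on which at least 1 of the 2 RNAs was not well above background; all Spns2 points lie above 0, from 0.40 to 1.62.

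Spns2, the S1P exporter, had a higher signal in the treated RNA on all 8 arrays, by 1.75-fold on average at 8 h and 2.63-fold at 24 h. Its log2 ratios at 8 h were 1.04, 0.96, 0.40 and 0.84 in replicates 1 to 4, with a mean of 0.81 ± 0.29 (SD, n = 4). At 24 h they were 1.36, 1.10, 1.49 and 1.62, with a mean of 1.39 ± 0.22 (SD, n = 4). Replicate 3 was the lowest array at 8 h. Each 24 h array was above each 8 h array under loess, by a narrow margin (1.10 against 1.04). Under both other scalings given below, the arrays of the 2 times overlapped. The 24 h mean exceeded the 8 h mean by 0.59 on the log2 scale.

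The levels of each RNA stand behind these ratios. In control RNA the Spns2 level was 8.28 ± 0.24 at 8 h, from 8.03 to 8.57, and 8.59 ± 0.29 at 24 h, from 8.34 to 9.0 (SD, n = 4 each). In treated RNA it was 9.09 ± 0.13 at 8 h, from 8.97 to 9.21, and 9.98 ± 0.29 at 24 h, from 9.69 to 10.37. Treated and control levels did not overlap at either time, and the probe was well above background in all 16 RNAs. The control levels of the 2 times overlapped, and the treated levels did not. The control mean was also higher at 24 h, and each time was on its own slide, so levels of the 2 times cannot be told apart from the slides. Among 10866 genes tested, the mean ratio of Spns2 ranked 3 from the top at 8 h and 8 at 24 h. Spns2 was picked for its rise at both times, so these ranks restate that pick.

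**Figure D2:**
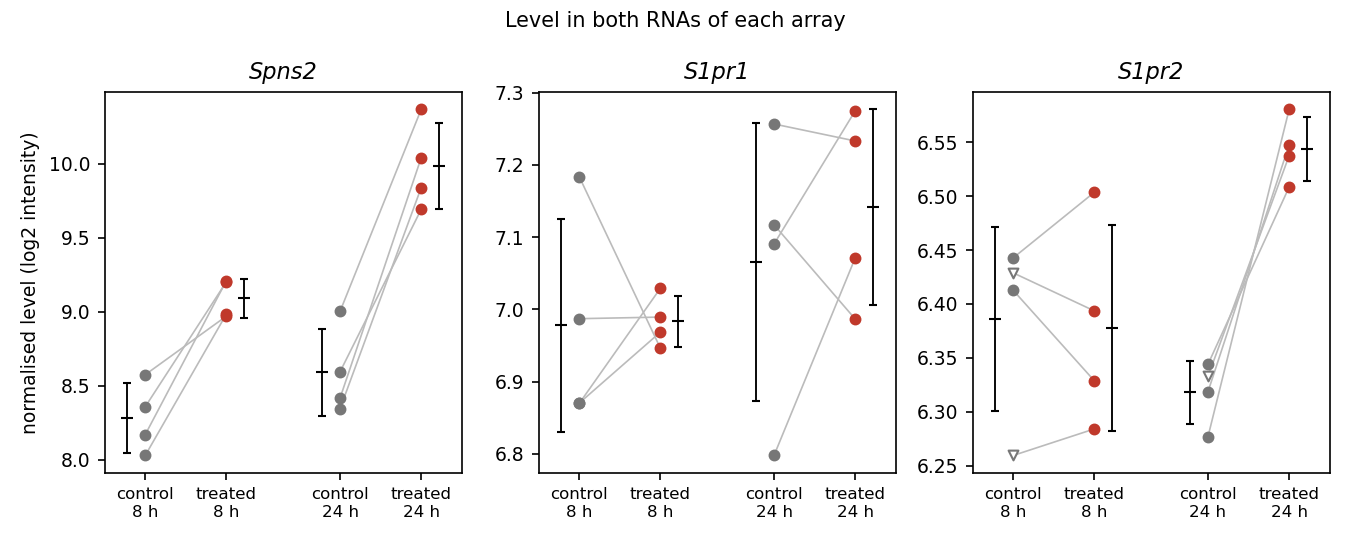
Normalised log2 level (y axis, a scale of its own in each panel) of Spns2, S1pr1 and S1pr2 in control (grey) and treated (red) RNA at 8 h and 24 h. Lines join the 2 RNAs of an array, bars are mean ± SD over 4 arrays, and open triangles are RNAs not well above background. Treated and control levels do not overlap for Spns2 at both times and for S1pr2 at 24 h, a description with no share over all genes.

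The size of the Spns2 ratio depended on the dye correction, and on 1 array so did its sign. Before normalization, the spot's treated and control intensities were 722 and 318, 269 and 331, 727 and 219, and 981 and 168 on the 8 h arrays, so that on replicate 2 the uncorrected treated signal was the lower one. At 24 h they were 2739 and 365, 1267 and 260, 721 and 309, and 776 and 319. On arrays with the treated RNA in Cy5 the mean ratio was 0.62 at 8 h and 1.23 at 24 h, and with it in Cy3, 1.00 and 1.56. The arrays' own processed signals put the ratios between 0.50 and 1.25 at 8 h and between 1.24 and 1.83 at 24 h. Centring each array on its median, with no dye curve, put them between 0.12 and 2.07 and between 1.31 and 2.46. Under each of the 3 scalings the ratio was above 0 on 4 of 4 arrays at both times. Without replicate 1, the array that stood apart, the 8 h mean was 0.79.

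**Figure D3:**
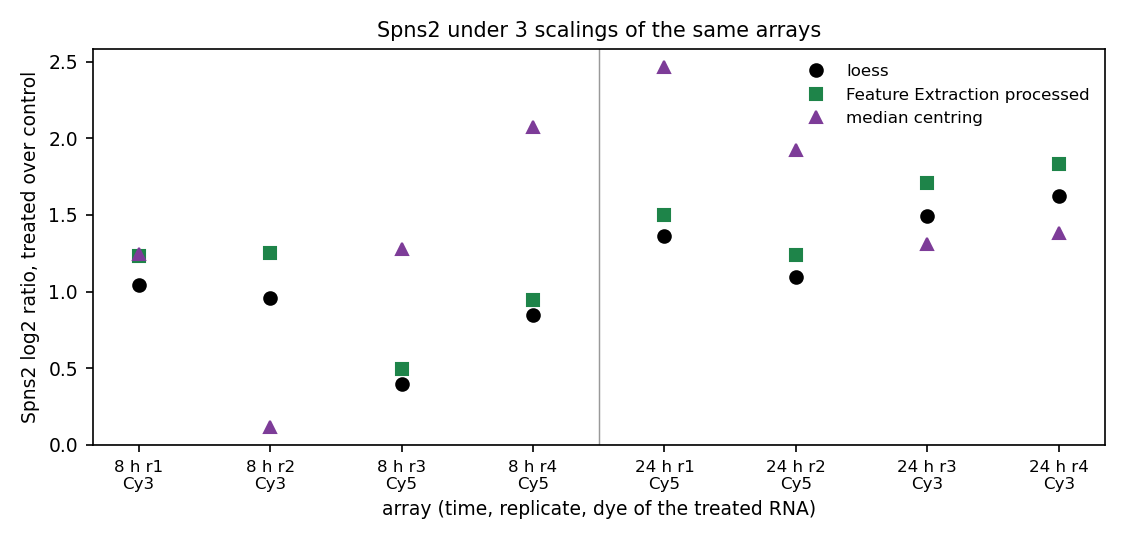
Spns2 log2 ratio of treated over control (y axis) on each of the 8 arrays (x axis, with the dye of the treated RNA) under 3 scalings of the same spots. Circles are loess values, squares the scanner software's processed signals and triangles median centring; all points lie above 0, and the triangles spread furthest, from 0.12 to 2.46.

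S1pr1, the receptor by which lymphocytes leave lymph nodes and endothelial cells keep their barrier in mouse, showed no difference larger than the spread between arrays. Its ratios were 0.16, 0.10, -0.24 and 0.00 at 8 h, a mean of 0.01 ± 0.17 (SD, n = 4), and the 95% interval of the limma fit ran from -0.19 to 0.20. At 24 h they were 0.18, -0.02, -0.13 and 0.27, a mean of 0.08 ± 0.19, with an interval from -0.12 to 0.27. Arrays lay on both sides of 0 at each time, and treated and control levels overlapped. By limma's test with Benjamini-Hochberg adjustment over all genes, the adjusted p was 0.98 at 8 h and 0.682 at 24 h. The change between times, 0.07 with an interval from -0.21 to 0.35, did not pass either (adjusted p = 0.815). At 8 h the level of S1pr1 was 6.98 ± 0.15 in control and 6.98 ± 0.04 in treated RNA. At 24 h it was 7.07 ± 0.19 in control and 7.14 ± 0.14 in treated RNA, and all 16 RNAs were well above background. On the loess scale, the intervals at 8 h and at 24 h lay below the Spns2 mean of the same time. Spns2 was picked for its rise, so that outcome was largely fixed in advance and is no result on S1pr1. Ratios could depend strongly on the scaling: S1pr2 at 24 h was 0.23 under loess and 0.83 with processed signals. Whether the probes of S1pr1 and Spns2 report a change on the same scale was not tested. With processed signals S1pr1 stood at 0.03 at 8 h and -0.04 at 24 h, with no interval given.

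S1pr2, a receptor that couples to several G proteins, was on the loess scale flat at 8 h and slightly higher at 24 h without passing the threshold. Its ratios at 8 h were -0.08, 0.06, 0.02 and -0.04, a mean of -0.01 ± 0.06 (SD, n = 4; limma adjusted p = 0.955). At 24 h they were 0.23, 0.20, 0.30 and 0.16, a mean of 0.23 ± 0.06 or 1.17-fold, with an interval from 0.08 to 0.37. All 4 arrays at 24 h were above 0, and the treated levels, from 6.51 to 6.58, did not overlap the control levels, from 6.28 to 6.34. The unadjusted p of this difference was 0.00548 in limma and the adjusted p was 0.0635. The gene lay close to background: 2 of 4 control RNAs at 8 h and 3 of 4 at 24 h were well above it, against all 8 treated RNAs.

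The call on S1pr2 at 24 h changed with the processing. From the processed signals and from the authors' deposited table the log2 ratio was 0.83 with a limma adjusted p of 0.0294, and with array weights it was 0.22 with 0.0247. Without replicate 1 at 8 h, which shares the estimate of spread, the adjusted p was 0.0447. Over all alternatives it ran from 0.0247 to 0.239. The difference between 24 h and 8 h, 0.23 with an interval from 0.03 to 0.43, did not pass (adjusted p = 0.239).

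In limma, then, 0 of the 2 receptors tested passed an adjusted p of 0.05 at 8 h, where 0.0276% of all genes passed, and 0 of 2 passed at 24 h, where 7.09% did. For the difference between times 0 of 2 passed, beside 1.3% of all genes. At an unadjusted p under 0.05 the counts were 0 at 8 h, beside 17.1% of all genes, 1 at 24 h, beside 22%, and 1 between times, beside 16.2%. With no filter on dim probes all 7 pathway genes could be tested, and 0 passed at 8 h, 24 h or between times, beside 0.0114%, 2.75% and 0.587% of the genes tested in that setting.

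S1pr3, the remaining receptor of the set, was well above background in 2 control RNAs at 8 h and in none of the other 14 RNAs. The 8 h arrays gave ratios of -0.03, -0.05, -0.21 and -0.14. The 24 h arrays gave -0.05, -0.21, -0.20 and -0.14, so that 8 of 8 were below 0. With the treated RNA and several control RNAs not well above background, no fold is given and the gene was not tested.

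The enzymes that make and remove S1P were near or under the background. Sphk1 and Sphk2, the kinases that make it, were not well above background in any of 16 RNAs. Ratios of Sphk1 ran from -0.10 to 0.04 at 8 h and from -0.31 to 0.22 at 24 h, where the mean was 0.20 with the treated RNA in Cy5 and -0.16 with it in Cy3. Ratios of Sphk2 ran from -0.14 to 0.31 at 8 h and from -0.11 to 0.10 at 24 h. Sgpl1, the lyase, was well above background in 1 control RNA at 8 h alone, with ratios from -0.17 to -0.02 at 8 h and from -0.09 to 0.08 at 24 h. Sgpp1, which dephosphorylates S1P inside the cell, was well above background in 1 treated RNA at 8 h, 2 treated RNAs at 24 h and no control RNA. Its ratios ran from -0.06 to 0.06 and from -0.14 to 0.13. For these 5 genes a signal this close to background can hide a change, so the small ratios do not show that they stayed level.

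The wider pathway was read from a list of 48 further genes of sphingolipid metabolism and S1P signalling. Of these, 46 were on the array and 22 were measured. At 8 h 0 of 22 passed in limma, where 0.0184% of all genes rose and 0.0092% fell, and the median ratio was 0.01 against -0.01 over all genes. At 24 h 2 rose and 1 fell, beside 4.16% of all genes that rose and 2.93% that fell, and 19 did not pass. The median at 24 h was 0.07, against 6.95e-05 over all genes. At 24 h 18 of the 22 were above 0, and at 8 h 12 were. With every kept probe counted by itself, 4 of 25 probes of the list passed at 24 h, 2 higher and 2 lower. In that setting 833 of all 12053 probes passed. The list was not tested as a set.

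Plpp3, a lipid phosphate phosphatase of the cell surface that acts on S1P and lysophosphatidic acid, rose at 24 h. Its ratios were 0.88, 1.03, 0.90 and 0.45, a mean of 0.81 ± 0.25 (SD, n = 4; limma adjusted p = 0.00212). Treated levels, from 8.28 to 8.71, lay above control levels, from 7.40 to 7.96. At 8 h its ratios were 0.36, 0.16, 0.38 and -0.05, a mean of 0.21 ± 0.20 that did not pass (adjusted p = 0.316), and the change between times was 0.60 with an adjusted p of 0.0801. Plpp3 passed at 24 h under every alternative run, with adjusted p between 0.000275 and 0.0279. Of the other breakdown enzymes, Plpp1 (0.03) and Aldh3a2 (0.13), which oxidises the fatty aldehyde the lyase yields, did not pass at 24 h, and Sgpp2 and Plpp2 were not measured.

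Among genes of ceramide synthesis, 8 of 17 were measured, 1 rose at 24 h, and the median was 0.16. Cers1, the ceramide synthase known from muscle and brain, was the one, with ratios of 0.22, 0.23, 0.60 and 0.23, a mean of 0.32 ± 0.19 (limma adjusted p = 0.0352), against -0.09 at 8 h. The call on Cers1 was lost without replicate 1, 2 or 3 at 24 h or replicate 3 or 4 at 8 h, with ratios from 0.23 to 0.33 and limma adjusted p from 0.0536 to 0.157. With processed signals and with median centring the ratio was larger, 0.54 and 0.61, and did not pass either (0.0529 and 0.065). Degs1 (0.28), which makes ceramide from dihydroceramide, and Ormdl1 (0.25), which restrains ceramide synthesis, had adjusted p of 0.0696 and 0.0679 in limma. A second Cers1 probe stood at 0.08 at 24 h but was not kept, since it was well above background in 1 of 16 RNAs.

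Of the sphingomyelin and glycosphingolipid enzymes, 8 of 12 were measured, 1 fell, and the median at 24 h was 0.07. Sgms1, which joins ceramide to phosphocholine to make sphingomyelin, had ratios of -0.42, -0.35, -0.39 and -0.20, a mean of -0.34 ± 0.10 (limma adjusted p = 0.029), against 0.02 at 8 h. Its treated levels, from 6.80 to 7.01, lay below the control levels, from 7.11 to 7.36. With processed signals and in the authors' deposited table the ratio was -0.80 (limma adjusted p = 0.00828). With median centring it was -0.12 and did not pass (adjusted p = 0.619), and it did not pass without replicate 1, 2 or 3 at 24 h or replicate 3 at 8 h (adjusted p between 0.0557 and 0.187).

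The other S1P transporters and carriers gave 2 of 7 measured genes and no call. Abca1 had a ratio of -0.14 ± 0.21 at 24 h (limma adjusted p = 0.389) and Abcc1 one of 0.03, while the Spns2 relatives Spns1 and Spns3 were not measured. The receptors S1pr4 and S1pr5 were on the array and not measured. Of 5 ceramidases, which free sphingosine from ceramide, only Acer2 was measured, at 0.06 ± 0.16 at 24 h (limma adjusted p = 0.744). With processed signals it was 0.48 (limma adjusted p = 0.401). Acer2 was well above background in only 1 control RNA and 4 treated RNAs, so its small ratio does not show that it stayed level.

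**Figure D4:**
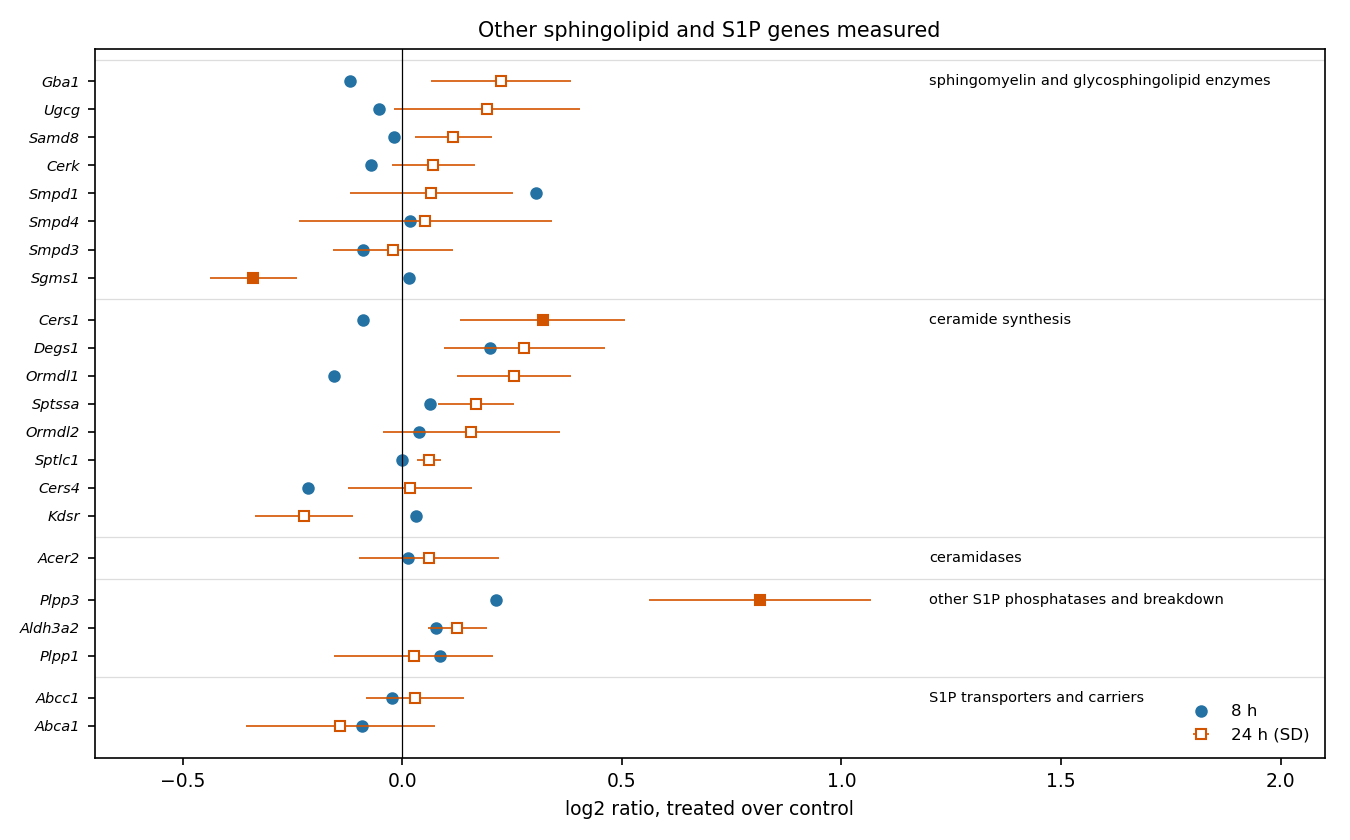
Mean log2 ratio of treated over control (x axis) of the 22 measured genes of the wider list (y axis, grouped by role). Blue circles are 8 h and orange squares 24 h with SD over 4 arrays, and filled squares passed an adjusted p of 0.05; Plpp3 at 0.81 and Cers1 at 0.32 rose, and Sgms1 at -0.34 fell.

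Marker genes of the cell types known to express Spns2 or S1P receptors, and of other cell types, were read on the same arrays. Of 13 blood endothelium markers 7 were measured, and Tek, Tie1, Eng and Esam were well above background in no RNA. Their summed log2 level at 8 h ran from 10.75 to 10.89 in control and from 10.13 to 10.74 in treated RNA. The ratio of the sum at 8 h ran from -0.757 to -0.00735. At 24 h it ran from 10.36 to 10.81 and from 10.42 to 10.70, and the ratio of the sum from -0.28 to 0.07. Kdr, the main VEGF receptor, rose at 24 h (0.36 ± 0.12, limma adjusted p = 0.0413), and the other 6 did not pass. Cdh5, the endothelial cadherin, had a ratio of -0.27 and Pecam1 one of 0.14 at 24 h.

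Of 7 lymphatic endothelium markers 4 were measured and 0 passed at either time, and Prox1, Mmrn1 and Reln were well above background in no RNA. The ratio of their sum ran from -0.41 to -0.07 at 8 h and from -0.16 to 0.35 at 24 h, with levels from 8.78 to 8.90 in control and from 8.62 to 9.16 in treated RNA at 24 h. Of 10 macrophage markers 8 were measured, 0 passed at 8 h and 4 rose at 24 h. Among these 4 were C1qa (0.69, limma adjusted p = 0.00103), Cd163 (0.50, 0.0144) and C1qc. The other 4 did not pass at 24 h: C1qb (0.37), Csf1r (0.08), Adgre1 (0.05) and Cd68 (-0.02). The ratio of the summed macrophage markers ran from 0.34 to 0.74 at 24 h and from -0.92 to 0.32 at 8 h. Their summed level at 24 h ran from 11.84 to 12.19 in control and from 12.23 to 12.67 in treated RNA. The muscle fibre sum was lower in treated RNA at 24 h, by a ratio from -0.66 to -0.17, and its members Acta1 (-0.44) and Actn3 (-0.55) fell while Myh1 (1.33) rose. Of the satellite cell, smooth muscle and Schwann cell markers, 3, 8 and 5 were measured and 0 passed. Of 7 fibroblast markers measured, Col1a1 rose at 24 h (1.54) and 6 did not pass, with Lum at -0.25 and Dcn at 0.00, and the list's median was 0.00. The 1 platelet marker measured, Pf4, rose (0.57), and of 3 adipocyte markers measured Fabp4 rose (0.43) and 2 did not pass. Of 6 erythrocyte markers 2 were measured and 0 passed at either time. The ratio of their sum varied widely, from -2.20 to 0.43 at 8 h and from -0.12 to 1.73 at 24 h. The part of these cell types in the Spns2, Plpp3 and S1pr2 ratios was not tested.

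The genes whose ratios lay nearest to those of Spns2 were found by the root mean square difference over the 8 arrays, among 7490 other genes with a symbol. The median gene differed by 1.18, and 8 genes lay within 0.5. The nearest was Schip1, at 0.384, with means of 0.57 ± 0.35 at 8 h and 1.05 ± 0.56 at 24 h (SD, n = 4), although another kept probe of Schip1 stood at 0.01 and 0.03. Amd1, the S-adenosylmethionine decarboxylase of polyamine synthesis, followed at 0.403, with 1.17 ± 0.23 and 1.42 ± 0.38. Bag3, a cochaperone of muscle, lay at 0.415 with 0.73 ± 0.39 and 0.88 ± 0.21. Pgf, the placental growth factor, lay at 0.450 with 0.53 ± 0.28 and 0.87 ± 0.27, and was well above background in 6 of 8 control RNAs. With processed signals the Pgf means were larger, 1.33 and 2.16. Ankrd9 lay at 0.465 with 0.32 ± 0.12 and 1.11 ± 0.08. Each of these 5 had a ratio above 0 on 8 of 8 arrays, which the measure of likeness favours, and no test is given for them.

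**Figure D5:**
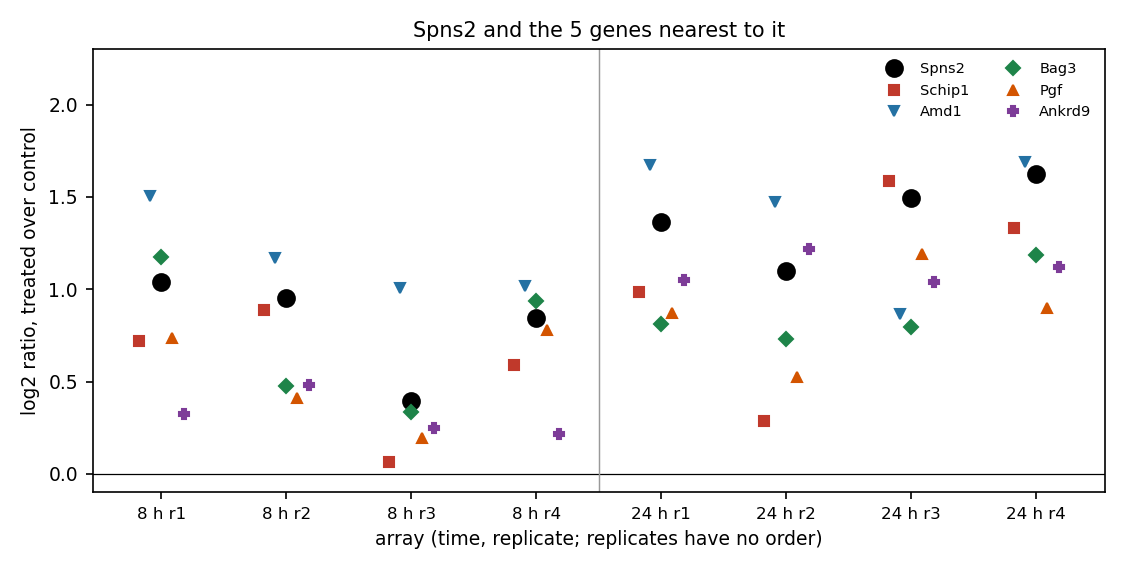
Log2 ratio of treated over control (y axis) on each of the 8 arrays (x axis; points of a gene are shifted sideways only for reading) for Spns2, in black, and the 5 genes nearest to it. Replicate 3 at 8 h was the lowest 8 h array for Spns2 (0.40), Schip1, Amd1, Bag3 and Pgf, and replicate 4 for Ankrd9 (0.21). For Amd1 replicates 3 and 4 were nearly equal (1.01 and 1.02). The measure of likeness favours a shared low array.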

How the data were processed

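Treated and control RNA were compared on 8 Agilent arrays. Per the labels' protocols, RNA was isolated with Trizol and labelling used the Quick Amp kit. Agilent Feature Extraction 9.5.3.1 is the software named in the submitters' processing notes. The deposited mean and background signals, per the file headers, are linear intensities without normalization, the processed signals are intensities after background and dye correction, and LogRatio is the log10 ratio of Cy5 over Cy3. The authors' deposited value table holds log2 ratios of unstated scale, centring and direction; it equalled the log2 ratio of treated to control processed signals within 1.35e-05, with no centring added and column medians from -0.144 to 0.0896.

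Mean signals were corrected by normexp (offset 50) and loess in limma 3.58.1 under R 4.3.3. Spots for array control and 731 to 927 flagged spots of 42877 per array were left out. Of 30367 probes 12053 were kept, and the brightest stood for each of 10866 genes, 8062 with a symbol, named through RefSeq (assembly GRCr8, names only; 18005 probes by accession, 3215 by a file symbol it holds, 1933 by file symbol only, 7214 unnamed). Channel levels were scaled by Aquantile. The model had a coefficient per time and a dye coefficient, with two-sided tests adjusted by Benjamini-Hochberg over all genes at 0.05. The pipeline was tested on simulated data. The genes and lists were chosen with earlier results of these data known. Named were all 8 genes, each list gene that passed or else the one with the largest 24 h ratio per role, the 5 nearest to Spns2, and up to 3 markers a list. Results on 1 further group of signalling genes are not reported here. Abcc1, Plpp1, Aldh3a2, Degs1, Ormdl1, Ckm, Cdh5, Pecam1, C1qb, Csf1r, Adgre1 and Cd68 were added after their values were seen. Alternatives changed the scaling, dye term, filter, probe choice, weights, time pooling, replicate block and single arrays.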

Additional observations from a re-analysis of the deposited data

How the results depend on the processing

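Spns2 stayed above 0 in every setting run, and moved most with median centring, to 1.18 at 8 h and 1.77 at 24 h; single arrays left out gave 0.72 to 0.90 and 1.34 to 1.44. Over all genes, the median ratio with median centring was 0.12 (8 h) and 0.16 (24 h), and that setting changed the rises and falls at 24 h from 452 and 318 to 380 and 18. Of 334 recomputed single-gene ratios, 292 kept their direction and call, or moved by less than 1 SD. Changes of dye term, filter, probe choice, time pooling or replicate block return, by design, the same ratio for the probe used. Leaving out an array of the other time does so too, and only the call could change there. This count and the sign of Spns2, picked for its rise, are thus partly fixed in advance. The S1P receptor count at 24 h, 0 in the report, was 1 with processed signals, the authors' table and array weights, and 0 to 1 with arrays left out. The wider list at 24 h, 3 in the report, gave 6 with array weights, and 1 (without replicate 1, 2 or 3 at 24 h or replicate 3 at 8 h) to 4 (without replicate 1 or 2 at 8 h) with arrays left out; at 8 h, 0 in the report, it gave 0 to 1 (without replicate 2 at 8 h). All genes at 24 h numbered 770, against 1529 with array weights, 1605 with each time alone, 398 with median centring, and 192 to 1239 with arrays left out. All genes at 8 h numbered 3, against 1 with processed signals, the authors' table or no dye term, 0 with median centring or each time alone, 8 with the replicate block, and 0 to 1225 with arrays left out, the highest without replicate 2 at 8 h. The difference between times gave 141, against 86 with processed signals or the authors' table, 282 with array weights, 0 with median centring, 309 with the replicate block and 28 to 599 with arrays left out. The cause of these shifts was not tested.

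Same-numbered arrays were not taken as pairs: their deviations correlated at -0.261, 0.172, -0.159 and -0.0809, and these values carry the dye, which was opposite between times. Differences between arrays of 1 dye, which do not, correlated between times at 0.0258 (replicates 1 and 2) and 0.0346 (3 and 4). Residuals after the common dye term correlated at 0.191 to 0.338, but that term makes the dye part of both equal. With the replicate block Spns2 stood at 0.81 and 1.39, the receptor counts stayed 0, and Cers1 at 24 h no longer passed (adjusted p = 0.0698 in limma).

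Ratios that changed sign did not pass before or after. The processed signals and the authors' table put S1pr1 at -0.0357 at 24 h and -0.0641 between times, S1pr2 at 0.13 and Acer2 at -0.42 at 8 h. Median centring gave, at 8 h, S1pr2 0.0112, Cers1 0.16 and Acer2 -0.00696. Array weights gave, at 8 h, S1pr1 -0.0552 and S1pr2 0.00231. Arrays left out gave, at 8 h, S1pr1 -0.0321 to 0.0791, S1pr2 -0.0351 to 0.0228, Sgms1 -0.0387 to 0.0754 and Acer2 -0.0739 to 0.0532. At 24 h they gave Acer2 -0.032 to 0.12, and between times S1pr1 -0.00318 to 0.18. Brightness limits the 5 genes under background.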
